A study of Mus musculus with 27 samples.

Results

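The genes described are those of MHC class II antigen presentation in mouse liver: the peptide-binding chains H2-Aa, H2-Ab1, H2-Ea and H2-Eb1, the peptide-exchange factors H2-DMa and H2-DMb1, and the invariant chain Cd74. They were chosen by name, as all probe sets that the array annotation assigns to these 7 genes, out of 8251 genes with a single symbol on the Affymetrix array. The 7 genes had 8 probe sets of their own, and 1 further probe set was assigned to both H2-DMb1 and H2-DMb2. Liver RNA from 27 mice was measured, 1 liver per array, in 9 Dex, 9 Veh and 9 Con mice. The names Dex, Veh and Con are used as the labels write them. The labels used here spell out neither the names nor a dose, a time, or the sex, age, strain or H-2 haplotype of the mice. Levels are linear intensities on a scale on which the trimmed mean of every array is close to 100 (lowest 100.1, highest 100.2). The median of an array lay between 17.6 and 33.3.

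MHC class II molecules carry peptides from proteins taken up by a cell to its surface, where CD4+ T cells read them. The alpha and beta chains of the A and E molecules pair in the endoplasmic reticulum with the invariant chain, which blocks the groove and steers them to endosomes. There cathepsins trim the invariant chain, and the DM heterodimer swaps its last fragment for a peptide. In liver the genes are mainly those of Kupffer cells, dendritic cells and B cells, and interferon-gamma can induce them through the coactivator CIITA. In bulk liver, fewer cells of a type and less RNA per cell cannot be told apart. The livers had the defining hepatocyte transcripts: Alb had an intensity of at least 12637 and Apoa1 of at least 11415 in each of the 27 arrays.

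Class II promoters share an X box and a Y box, which RFX and NF-Y bind, and CIITA docks on that complex. Windows of the RefSeq promoter table (GRCm38.p6) ran from 250 bases before to 50 bases after the start. They are described for 4 of the 7 genes: H2-Aa, H2-Eb1, H2-DMb1 and H2-DMa. No window of H2-Ab1, H2-Ea or Cd74 is described, and whether these genes have the motifs is not reported. Those of H2-Aa (chr17:34287774-34288073, minus strand), H2-Eb1 (chr17:34305617-34305916, plus strand) and H2-DMb1 (chr17:34152941-34153240, plus strand) are shown because each holds the same pair of motifs. Capitals mark GNAACT, a core of the X box in which N is any base, and TGATTGG, a core of the Y box.
H2-Aa: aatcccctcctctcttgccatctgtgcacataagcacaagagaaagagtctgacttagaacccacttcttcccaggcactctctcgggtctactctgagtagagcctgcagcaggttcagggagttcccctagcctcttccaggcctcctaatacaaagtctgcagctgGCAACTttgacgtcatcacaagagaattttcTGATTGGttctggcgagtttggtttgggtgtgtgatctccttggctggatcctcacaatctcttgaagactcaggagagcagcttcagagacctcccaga
H2-Eb1: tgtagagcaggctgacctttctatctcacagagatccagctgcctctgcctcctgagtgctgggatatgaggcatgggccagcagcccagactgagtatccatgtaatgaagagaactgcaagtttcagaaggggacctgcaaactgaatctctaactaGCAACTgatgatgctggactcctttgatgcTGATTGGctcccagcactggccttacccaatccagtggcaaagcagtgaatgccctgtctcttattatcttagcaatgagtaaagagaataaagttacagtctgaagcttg
H2-DMb1: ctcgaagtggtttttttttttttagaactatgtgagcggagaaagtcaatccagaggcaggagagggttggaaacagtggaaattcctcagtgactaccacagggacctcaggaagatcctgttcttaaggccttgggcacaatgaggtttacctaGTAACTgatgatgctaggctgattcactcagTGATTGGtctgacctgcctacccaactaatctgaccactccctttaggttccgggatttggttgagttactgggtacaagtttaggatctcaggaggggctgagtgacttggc
The motifs did not overlap, and 25, 24 and 25 bases lay between them in H2-Aa, H2-Eb1 and H2-DMb1. GNAACT was found on either strand in 42.8% of all 32851 windows of this length and TGATTGG in 7.82%. Both in this order within 40 bases of each other were found in 110 windows, or 0.335%. The letters were chosen after these windows had been read, so the shares describe the motif and are no test. The pair was not found in either of the 2 windows of H2-DMa.

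Cd74, whose product chaperones every class II molecule, had its highest values in Veh livers. Its intensity ranged from 124.5 to 476.2 in Dex (median 251.3), from 173.3 to 2113.2 in Veh (median 509.8) and from 160.2 to 449.7 in Con (median 316.7). Veh 7 (2113.2), Veh 2 (1163.1), Veh 4, Veh 6 and Veh 9 lay above every Con mouse, while the other 4 Veh mice lay within the Con range. The Dex and Veh ranges overlapped, although each of the 9 Dex values was under the median of Veh. The log2 difference was -1.06 ± 0.34 for Dex against Veh (SE, n = 9 each, limma adjusted p = 0.136) and 0.92 ± 0.34 for Veh against Con (limma adjusted p = 0.108). Neither passed the threshold of 0.05. For Dex against Con it was -0.14 ± 0.34 (limma adjusted p = 0.812), with a 95% interval from -0.84 to 0.56.

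H2-Aa encodes the alpha chain of the A molecule. Its intensity ranged from 10 to 151.9 in Dex (median 99), from 74.5 to 711 in Veh (median 276.6) and from 33.6 to 148.5 in Con (median 115.1). The same 5 Veh mice as for Cd74 lay above every Con mouse, with 711 in Veh 2 and 687.7 in Veh 7. Among Dex mice, Dex 5 and Dex 7 stood at 10 and 19.8, below the median of their arrays, and the other 7 lay between 47.8 and 151.9. The log2 difference was -1.75 ± 0.49 for Dex against Veh, the lowest adjusted p of any class II gene in any comparison (limma adjusted p = 0.0881, 9 of 9 Dex mice below the Veh median). It was 1.15 ± 0.49 for Veh against Con (limma adjusted p = 0.151) and -0.60 ± 0.49 for Dex against Con (limma adjusted p = 0.416).

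H2-Ab1 encodes the beta chain that pairs with H2-Aa. Its intensity ranged from 35 to 116.4 in Dex (median 65), from 39.7 to 279.1 in Veh (median 95.3) and from 12.7 to 103 in Con (median 62.2). Veh 7 was highest again (279.1), followed by Veh 2 (146.1), and 4 of the 9 Veh mice lay above every Con mouse. Dex 7, which had a low H2-Aa, had the highest H2-Ab1 of the Dex mice (116.4). The log2 difference was -0.62 ± 0.34 for Dex against Veh and 0.80 ± 0.34 for Veh against Con (limma adjusted p = 0.385 and 0.158). For Dex against Con it was 0.17 ± 0.34 (limma adjusted p = 0.761), and it was -0.08 without Con 1, the lowest Con mouse (12.7).

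**Figure D1:**
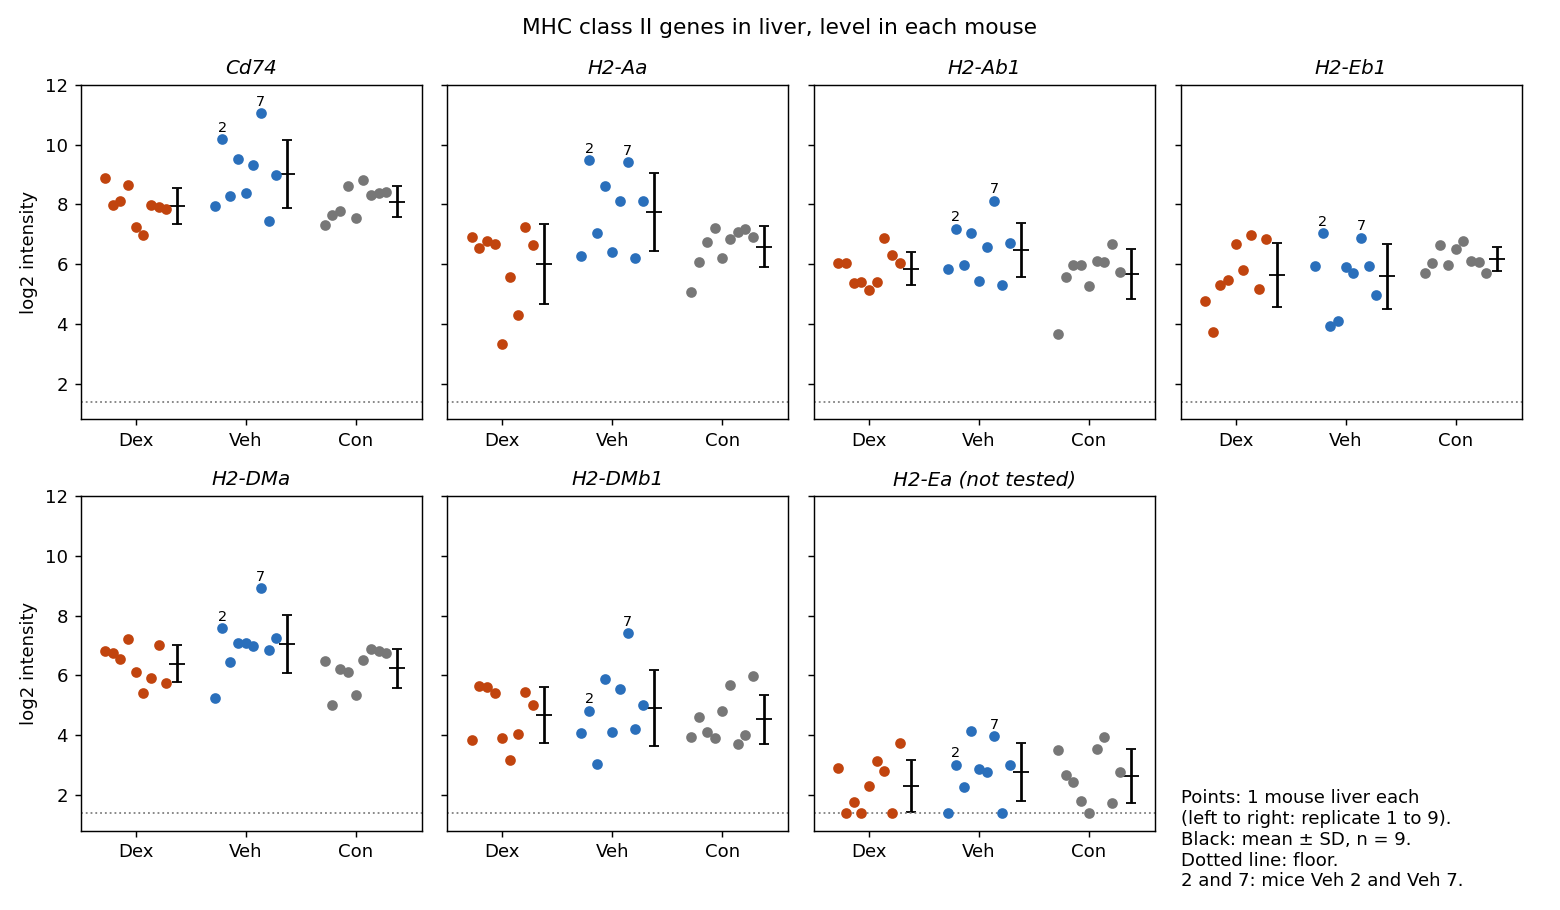
Level of each class II gene (y axis, log2 intensity) in every mouse by group (x axis: Dex, Veh, Con), with 1 point per liver, black bars for the mean ± SD (n = 9) and a dotted line at the floor of 2.6. The highest Veh points for Cd74 and H2-Aa are Veh 2 and Veh 7, while several Dex and Veh points for H2-Eb1 lie under the Con points and H2-Ea lies near the floor in all groups.

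H2-Eb1, the beta chain of the E molecule, had another pattern. Its intensity ranged from 13.3 to 125.9 in Dex (median 44.1), from 15.4 to 130.5 in Veh (median 59.6) and from 51.9 to 108.6 in Con (median 67.8). Veh 2 (130.5) and Veh 7 (118.4) were above every Con mouse. Below every Con mouse were 4 Veh mice: Veh 3 (15.4), Veh 4 (17), Veh 9 (31.2) and, narrowly, Veh 6 (51.7). Of these, Veh 4, Veh 6 and Veh 9 had been above every Con mouse for H2-Aa. In Con the spread was narrow, with a log2 SD of 0.39, against 1.07 in Dex and 1.09 in Veh. The log2 difference was 0.04 ± 0.39 for Dex against Veh, -0.58 ± 0.39 for Veh against Con and -0.53 ± 0.39 for Dex against Con (limma adjusted p = 0.976, 0.378 and 0.362). Its partner H2-Ea is annotated as a transcribed pseudogene in the RefSeq gene table, and in mice of the H-2b haplotype it is known not to be expressed. H2-Ea ranged from 1.9 to 13.4 in Dex, from 1.5 to 17.6 in Veh and from 2.4 to 15.3 in Con, below the array median in all 27 arrays. It was therefore not clearly above background and not tested.

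H2-DMa and H2-DMb1 encode the DM heterodimer that loads peptides. H2-DMa ranged from 42.5 to 149.5 in Dex (median 93), from 37.9 to 490 in Veh (median 135.2) and from 32.4 to 118.2 in Con (median 88.7). Veh 7 (490) stood far above the next Veh mouse, Veh 2 (191.6), and 6 of the 9 Veh mice lay above every Con mouse. The log2 difference was -0.66 ± 0.33 for Dex against Veh, 0.82 ± 0.33 for Veh against Con and 0.16 ± 0.33 for Dex against Con (limma adjusted p = 0.348, 0.137 and 0.777). A second H2-DMa probe set was above the array median in 4 of 27 arrays and was not tested. H2-DMb1 ranged from 9 to 49.9 in Dex (median 32.4), from 8.2 to 172.2 in Veh (median 28.3) and from 13.1 to 63 in Con (median 17.2). Veh 7 (172.2) was the only Veh mouse above every Con mouse. The log2 difference was -0.22 ± 0.46 for Dex against Veh and 0.37 ± 0.46 for Veh against Con (limma adjusted p = 0.842 and 0.633). Without Veh 7 these were 0.10 and 0.06. For Dex against Con it was 0.15 ± 0.46 (limma adjusted p = 0.847). The probe set shared by H2-DMb1 and H2-DMb2 read 42.3 in Veh 7 and at most 6.4 in the other 26 arrays.

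Counted together, 6 of the 7 genes had a tested probe set and 0 of these 6 passed in any comparison. In Dex against Veh 5 of the 6 differences were negative, with a median of -0.64 on the log2 scale beside -0.03 over all tested probe sets. limma called 0 of 6 there, while 0.265% of all 6784 tested probe sets were called (0.0442% higher, 0.221% lower). At an unadjusted p under 0.05 there were 2 of 6 (Cd74 and H2-Aa), beside 15.2% of all. In Veh against Con 5 of 6 were positive, with a median of 0.81 beside -0.19 over all, and 4 of 6 had an unadjusted p under 0.05, beside 23.6% of all. There limma called 0 of 6, beside 3.86% of all (1.19% higher, 2.67% lower). In Dex against Con 3 of 6 were positive, with a median of 0.01 beside -0.20 over all. The count was 0 of 6 by limma, beside 16.4% of all (3.26% higher, 13.2% lower), and 0 of 6 at an unadjusted p under 0.05, beside 31.5%. The 3 comparisons share their groups, so the negative values of Dex against Veh and the positive ones of Veh against Con both use the same 9 Veh mice. Without Veh 7 the median was -0.42 in Dex against Veh and 0.59 in Veh against Con. The beta-actin control probes gave a 3' over 5' ratio, which grows with RNA degradation, of (log2) 0.89 ± 0.17 in Dex, 1.27 ± 0.32 in Veh and 0.95 ± 0.24 in Con (SD, n = 9 each). It was 1.14 in Veh 7 and 1.92 in Veh 2. With this ratio as a covariate 0 of 6 genes passed in each comparison.

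**Figure D2:**
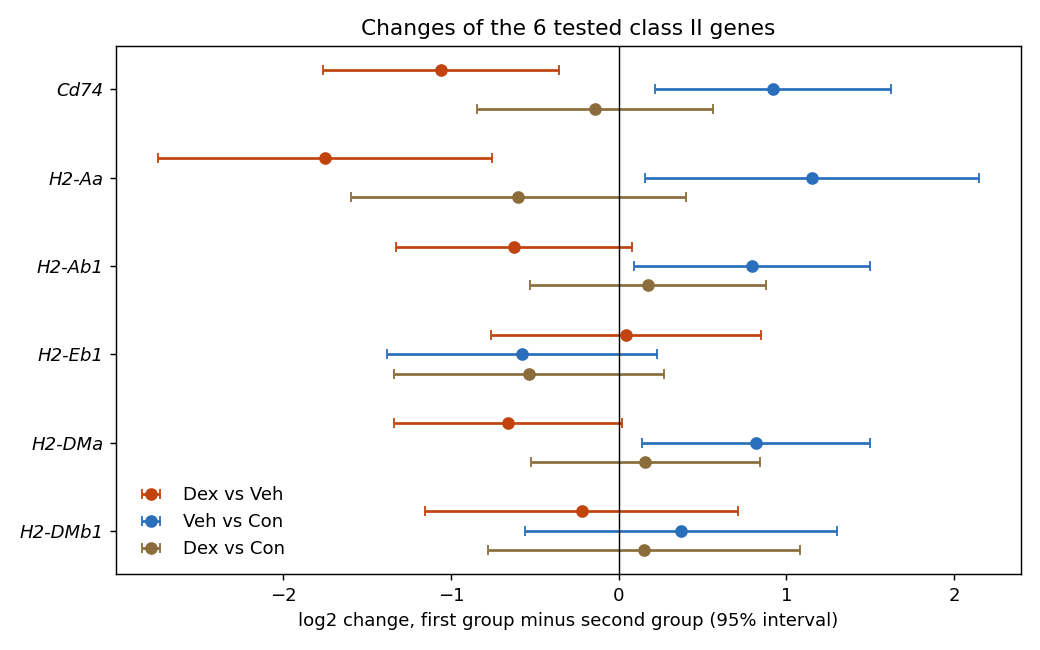
Log2 change (x axis, first group minus second) of the 6 tested genes (y axis) in the 3 comparisons, with points for the fitted change and bars for its 95% interval. For Cd74 the interval runs from -1.76 to -0.36 in Dex vs Veh and from 0.22 to 1.62 in Veh vs Con, and for H2-Eb1 all 3 intervals hold 0.

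Veh mice differed widely among themselves. Of the 6 tested genes, Veh 7 lay above every Con mouse for 6, Veh 2 for 5, Veh 4 and Veh 9 for 4, Veh 6 for 3 and Veh 5 for 1. Veh 1, Veh 3 and Veh 8 lay above every Con mouse for 0. Of all 6784 tested probe sets, Veh 7 lay above every Con mouse in 12.5% and Veh 2 in 11.1%. Relative to the Con mean, Veh 7 was higher by 2.95 for Cd74, 2.84 for H2-Aa, 2.46 for H2-Ab1, 2.70 for H2-DMa, 2.90 for H2-DMb1 and 0.72 for H2-Eb1 (log2). Veh 8 was at -0.66 for Cd74 and -0.37 for H2-Aa. The SD of the 6 genes within Veh (0.91 to 1.31 on the log2 scale) stood between the 88.3rd and 98th percentile of all tested probe sets, whose median SD was 0.47. In Con it stood between the 52.4th and 90.7th percentile. In Dex, H2-Aa had the widest spread of the 6 (SD 1.34, 96.6th percentile) and Cd74 a near-average one (0.60, 55th percentile).

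**Figure D3:**
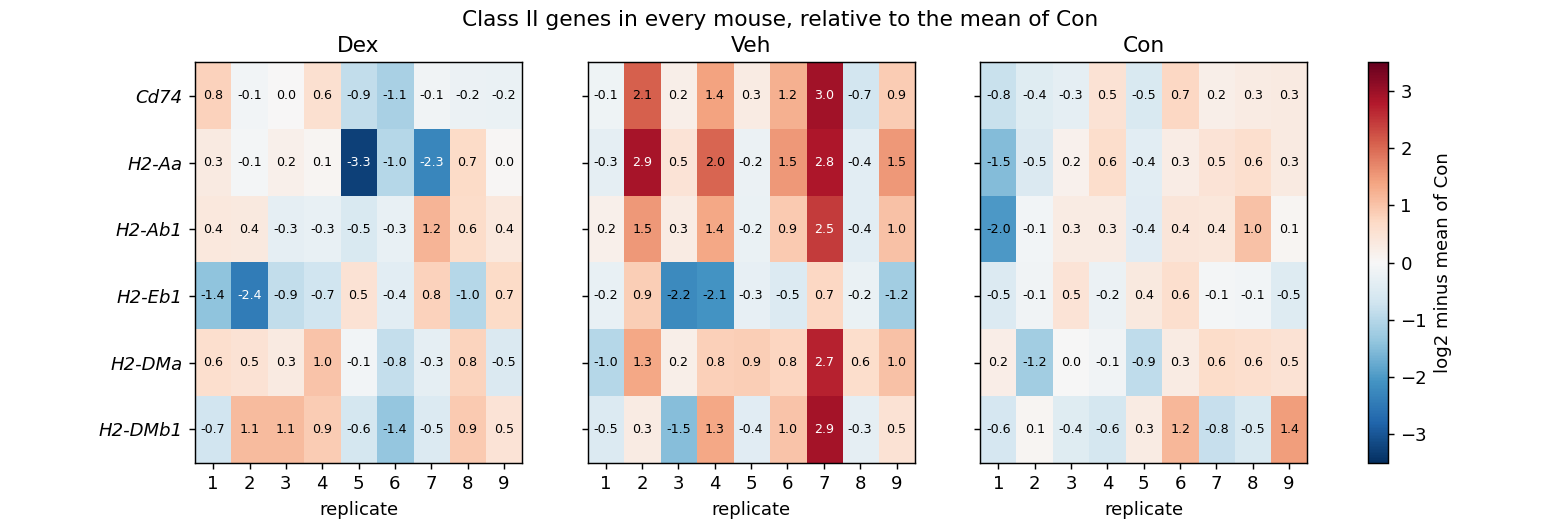
Log2 intensity of the 6 tested genes (rows) in every mouse (columns: replicates 1 to 9 of Dex, Veh and Con) minus the mean of the Con mice, printed in each cell and coloured from blue (lower) to red (higher). The Veh 7 column is high for all genes but less so for H2-Eb1 (0.72), and Dex 5 and Dex 7 are low for H2-Aa.

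From mouse to mouse, Cd74 and the other tested genes apart from H2-Eb1 tended to be high or low together. After the group means were taken off, Cd74 correlated over the 27 mice with H2-Aa (Pearson r = 0.783, permutation adjusted p = 0.00015; Spearman rho = 0.771, permutation adjusted p = 0.00045). With H2-Ab1 it had r = 0.745 and rho = 0.692 (permutation adjusted p = 0.000225 and 0.00215), and with H2-DMa r = 0.726 and rho = 0.676 (permutation adjusted p = 0.000637 and 0.00142). With H2-DMb1 it had r = 0.629 and rho = 0.551 (permutation adjusted p = 0.00565 and 0.0158). For H2-Eb1 no correlation with Cd74 was detected (r = 0.108, rho = -0.0159, permutation adjusted p = 0.757 and 0.943). Labels were permuted within groups 100000 times, two-sided, with adjustment over the 15 gene pairs. Of these, 8 passed 0.05 by Pearson and 9 by Spearman, and 0 of the 5 pairs with H2-Eb1 did by either. Whether the correlations differ between genes was not tested. Without Veh 7 and Veh 8, the mice farthest from the Cd74 median, r was 0.751 with H2-Aa, 0.626 with H2-Ab1, 0.683 with H2-DMa, 0.488 with H2-DMb1 and -0.0185 with H2-Eb1. By group, Cd74 and H2-Aa had r = 0.563 in Dex, 0.95 in Veh and 0.832 in Con, and Cd74 and H2-Ab1 had r = 0.275 in Dex, 0.963 in Veh and 0.724 in Con. The chains H2-Aa and H2-Ab1 of 1 heterodimer had r = 0.65 over all mice and 0.836 without Dex 5 and Dex 7. By Pearson, H2-Ab1 did not pass with H2-DMa or H2-DMb1 (permutation adjusted p = 0.0657 and 0.057). With H2-DMa it had r = 0.0121 in Dex, 0.727 in Veh and 0.221 in Con, and with H2-DMb1 0.059, 0.839 and 0.0861. H2-DMb1 had r = 0.586 in Dex, 0.74 in Veh and 0.0776 in Con with H2-Aa, and 0.635, 0.755 and -0.0482 with H2-DMa.

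**Figure D4:**
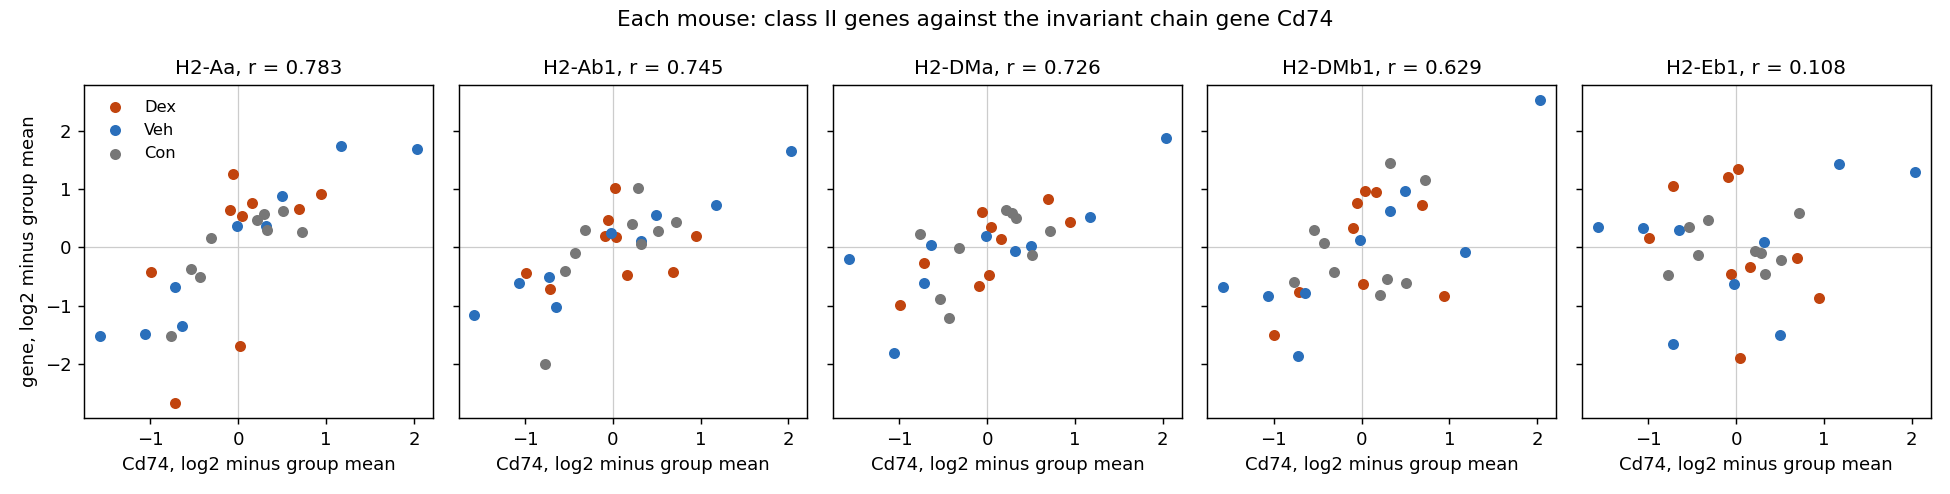
Each class II gene (y axis) against Cd74 (x axis), both as log2 intensity minus the group mean, with 1 point per mouse coloured by group and Pearson's r over 27 mice above each panel. The points rise together for H2-Aa (0.783), H2-Ab1, H2-DMa and H2-DMb1 and form no line for H2-Eb1 (0.108).

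The 5 genes outside the family whose levels were most like the mean of the 6 tested genes, among 5194 candidates, were Uba7, C1qb, Ctss, Fcgr1 and Il18bp. Likeness was Pearson's r over the 27 arrays after the group means were taken off. It was 0.776 for Uba7, 0.764 for the complement chain C1qb, 0.762 for cathepsin S (Ctss), 0.743 for the Fc receptor Fcgr1 and 0.73 for Il18bp. Without Veh 7 and Veh 3 these values lay between 0.531 (Il18bp) and 0.701 (C1qb). They are descriptions of a ranking and carry no test. Set against the mean of the other tested class II genes in the same way, Cd74 had r = 0.88 and ranked above all 5194 candidates, while H2-Eb1 had r = 0.04 and ranked 1999th.

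Of 21 further genes of class II regulation, processing and costimulation, 18 had a probe set of their own and 11 were tested. Ciita, the coactivator, ranged from 21.2 to 41 in Dex, from 11 to 35.7 in Veh and from 21.4 to 43.6 in Con. It read 14.8 in Veh 7 and 11 in Veh 2, the mice highest in H2-Aa, and 12.5 in Veh 5, whose H2-Aa was 84.1. These 3 values were below the medians of their arrays (24.4, 17.6 and 18.25). Ciita was above the array median in 16 of 27 arrays. Its log2 difference was 0.43 ± 0.25 for Dex against Veh and -0.48 ± 0.25 for Veh against Con (limma adjusted p = 0.41 and 0.248). In Dex against Veh and in Veh against Con limma called 0 of the 11. At an unadjusted p under 0.05 there were 5 and 1, beside 15.2% and 23.6% of all tested probe sets. Of the 11 differences 8 were negative in Dex against Veh (median -0.14), and 8 were positive in Veh against Con (median 0.10). In Dex against Con 3 of 11 fell and 0 rose, beside 13.2% of all tested probe sets called lower. The asparaginyl protease legumain (Lgmn) fell by 0.74 ± 0.20, cathepsin S (Ctss), which trims the invariant chain, by 0.95 ± 0.31 and the Y box subunit Nfyb by 0.57 ± 0.19 (log2, limma adjusted p = 0.012, 0.0338 and 0.0394). With quantile normalization none of the 3 passed (limma adjusted p = 0.0546, 0.107 and 0.165). Without a filter Ctss and Nfyb did not pass (limma adjusted p = 0.0542 and 0.0702). Of the 27 fits with 1 array fewer, 27 called Lgmn, 18 Ctss and 15 Nfyb. Lgmn ranged from 40.2 to 113.6 in Dex (median 49) and from 75 to 120.8 in Con (median 93.3), and Nfyb from 36 to 101.1 in Dex (median 56.5) and from 65.5 to 113.4 in Con (median 81.5). Ctss ranged from 36.5 to 155.9 in Dex (median 87.8), from 81 to 449.1 in Veh (median 147) and from 94.3 to 201.1 in Con (median 174.9). Its highest value was that of Veh 7 (449.1), and its log2 difference for Dex against Veh was -1.02 ± 0.31 (limma adjusted p = 0.118). The thiol reductase Ifi30, which unfolds antigens, had a log2 difference of -0.59 ± 0.21 for Dex against Veh and 0.39 ± 0.21 for Veh against Con (limma adjusted p = 0.179 and 0.266), and read 90.4 in Veh 7, against at most 68.9 in Con. By their brightest tested probe set, the remaining tested genes did not pass in any comparison. They were the RFX subunit Rfxank, the NF-Y subunits Nfya and Nfyc, the cathepsins Ctsl and Ctsb, and H2-DMb2, the second DM beta chain. For Dex against Veh their log2 differences lay between -0.70 (Nfya) and 0.29 (H2-DMb2), and for Veh against Con between 0.09 (Nfyc) and 0.35 (Ctsb). The Ctsb probe sets differed: the median of the brightest was 2379.7 in Veh and 1780.1 in Con, and that of another tested one was 28.8 in Veh and 36.3 in Con. Those of Nfyc differed too. The median of the brightest was 125.8 in Veh and 115.3 in Con. That of another tested one was 14.7 in Veh, 42.2 in Con and 36.4 in Dex. H2-Oa, H2-Ob and H2-Eb2, the other class II chains, and Cd40, Cd80, Cd86 and Creb1 were not clearly above background and not tested.

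The summed macrophage markers were highest in the 2 mice with the most H2-Aa, Veh 7 and Veh 2, and the dendritic and B cell sums were not. All 13 tested macrophage and Kupffer cell markers of 14 on the array were lower in Dex than in Veh (median -0.43). Of all tested probe sets 46.6% were higher there (median -0.03). An unadjusted p under 0.05 was reached by 2 of the 13, beside 15.2% of all. In Veh against Con 5 of 13 were positive (median -0.07), beside 30.1% of all (median -0.19), with 0 at an unadjusted p under 0.05, beside 23.6%. limma called 0 of 13 in both comparisons, beside 0.265% and 3.86% of all. The summed intensity of the macrophage markers was 695.8 to 1825.6 in Dex, 995.8 to 3136.9 in Veh and 1071 to 2027.1 in Con. It was 3136.9 in Veh 7 and 2652.5 in Veh 2, and Marco was not above background. Of the 13 tested macrophage markers, 6 lay above every Con mouse in Veh 7 and 6 in Veh 2. Of 6 tested dendritic cell markers 0 did in either mouse, and of 5 tested B cell markers 1 did in Veh 7 and 0 in Veh 2. Among all tested probe sets 12.5% did in Veh 7 and 11.1% in Veh 2. For dendritic cells 6 of 10 markers were tested, with sums of 432.5 to 958.6 in Dex, 442.2 to 671.1 in Veh and 447.6 to 812.5 in Con, and Ccr7, Zbtb46, Cd83 and Itgae were not above background. For B cells 5 of 10 were tested, with sums of 282.4 to 706.3 in Dex, 227.1 to 758.7 in Veh and 321.2 to 601.1 in Con. Cd22, Blk, Cr2, Fcer2a and Jchain were not above background. Veh 7 had a dendritic cell sum of 599.1 and a B cell sum of 644.2, and Veh 2 had 465.2 and 227.1. The B cell sum of Veh 7 ranked 3 among the 27 mice, above every Con mouse, and Ighm made up 65.6% of it. In Veh 7 Fscn1 made up 42.1% of the dendritic cell sum and C1qc 30.1% of the macrophage sum. Of T and NK cell markers 1 of 10 was tested (Cd4), and their sum was 98.5 to 254 in Dex, 47 to 210.9 in Veh and 93.6 to 164 in Con. In Dex against Veh and in Veh against Con limma called 0 genes of these 3 lists. For dendritic cells 5 of 6 markers had positive differences in Dex against Veh (median 0.41). Of the 6, 2 had an unadjusted p under 0.05, Xcr1 (0.9996 ± 0.28) and Fscn1 (0.46 ± 0.20), beside 15.2% of all tested probe sets. In the same comparison 4 of 5 B cell markers had positive differences (median 0.33), with 0 at an unadjusted p under 0.05. In Veh against Con 1 of 6 dendritic cell markers (median -0.30) and 3 of 5 B cell markers (median 0.02) had positive differences. Among these Xcr1 (-0.84 ± 0.28) alone had an unadjusted p under 0.05, beside 23.6% of all tested probe sets. The part of these cells in the class II values was not tested.

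Of 8 tested interferon-gamma response genes, 5 lay above every Con mouse in Veh 7 and 4 in Veh 2, and of 9 class I presentation genes 8 did in Veh 7 and 8 in Veh 2. Of all tested probe sets 12.5% did in Veh 7 and 11.1% in Veh 2. The summed intensity of 15 interferon-gamma genes, 7 of them not clearly above background, was 852.4 to 1932.1 in Dex, 1313.5 to 18972.7 in Veh and 1296.6 to 2430.6 in Con, with 18972.7 in Veh 7 and 5430.6 in Veh 2. The single gene Iigp1, an interferon-induced GTPase gene, made up 72.2% of that sum in Veh 7. That of 9 class I genes was 11880 to 21196.2 in Dex, 14689.3 to 37007.8 in Veh and 10149.5 to 18124.2 in Con, again with the highest values in Veh 7 (37007.8) and Veh 2 (24498). In Dex against Veh 7 of 8 tested interferon-gamma genes (median -0.42) and 9 of 9 class I genes (median -0.59) had negative differences, with 2 and 4 at an unadjusted p under 0.05, beside 15.2% of all tested probe sets. Past the adjusted threshold, 1 of 8 interferon-gamma genes fell, the GTPase gene Igtp (-2.13 ± 0.49, limma adjusted p = 0.0487), and 1 of 9 class I genes, the immunoproteasome subunit Psmb8 (-1.32 ± 0.29, limma adjusted p = 0.044), beside 0.221% of all tested probe sets called lower. Neither passed with the replicate block (limma adjusted p = 0.0802 for Igtp and 0.077 for Psmb8), quantile normalization (0.0503 and 0.0556), no filter (0.0759 and 0.0666), a fit without Con (0.192 for both) or the beta-actin ratio as a covariate (0.385 and 0.369). Without Veh 7 these were -1.64 and -1.05, and of the 27 fits with 1 array fewer 6 called Igtp and 10 Psmb8. In Veh against Con limma called 0 of 8 and 0 of 9, with 1 and 5 at an unadjusted p under 0.05, beside 23.6% of all tested probe sets. Their part in the class II values was not tested.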

How the data were processed

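Per the labels, Trizol extracts of liver were cleaned on RNeasy columns, and targets were made by Affymetrix protocols, 1 liver per array. The authors deposited 1 linear intensity per probe set and array, already scaled. No source used here names the summarising software. Of 12488 probe sets 66 were controls and left out. Gene names came from the platform annotation (1 symbol for 10833 probe sets, several for 396, none for 1193). Symbols were looked up by gene number in a RefSeq table.

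The 10th percentile of positive values (2.6) served as a floor before conversion to log2. Testing was limited to probe sets that exceeded the array's median on 9 or more of the 27 arrays (6784 probe sets, 5200 genes). One that did not is called not clearly above background. limma 3.58.1 (R 4.3.3) estimated a mean per group from the 27 arrays, using lmFit and then eBayes with trend. Two-sided p-values were adjusted by Benjamini-Hochberg across the 6784, with a threshold of 0.05. The code of the fit was run on simulated normal values, drawn independently for each probe set. That run does not cover correlated genes or outlying mice. In lists the brightest tested probe set stood for a gene. Sums take the brightest probe set of each gene on the array.

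The class II genes, lists and tests were chosen with earlier results of these data known. The rule for named genes took all probe sets of the 7 genes, the measured class II pathway genes, the 5 genes most like the class II mean and, of each other list, the genes past the threshold and the 2 with the smallest p. The text leaves out those 2 where they did not pass. The other lists were class I presentation, interferon-gamma response, and markers of macrophages, dendritic cells, B cells, T and NK cells, leukocytes, endothelium and hepatocytes. Alternatives were a replicate block, quantile normalization, a floor at the 1st or the 20th percentile, a stricter filter (18 of 27 arrays) or none, a fit without the third group, the beta-actin ratio as a covariate and leaving out each array. Precision is limited by how many arrays there are and by how far a signal stands above the floor. The p-values measure the spread between these mice.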

Additional observations from a re-analysis of the deposited data

Results flagged for a closer look

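In 27 groups of 9 values, the gap of the highest or lowest mouse to its neighbour was set against the whole range of its group (log2), with 0.493 as the limit. Chance alone passes it in about 1 in 20 groups of untied values, and 3 passed. H2-Ab1 of Con 1 was lowest (12.7, next 38.3, ratio 0.527). The probe set shared by H2-DMb1 and H2-DMb2 was highest in Veh 7 (42.3, next 6.4, ratio 0.677) and, at weak signals near the floor, in Con 8 (4.5, next 3.3, ratio 0.565). For this probe set 6 of 9 Veh and 7 of 9 Con values were tied at the floor, so that chance rate does not hold there, and all 9 Dex values were at the floor, with no range to compare.

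The shared probe set entered no comparison, since it is assigned to 2 genes and was above the array median in 1 of 27 arrays. Its 42.3 in Veh 7 lay above the highest Con value of 4.5.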

How the results depend on the processing

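No class II gene passed the threshold under any of the 8 other settings (lowest adjusted p 0.0801) or in any of the 27 fits with 1 array fewer. The direction of each of the 18 gene changes was kept in all 141 values of the other settings. Leaving out 1 array reversed 3 of the 18. H2-Ab1 in Dex against Con ranged from -0.0756 (without Con 1) to 0.30, H2-DMb1 in Dex against Veh from -0.45 to 0.10 (without Veh 7), and H2-Eb1 in Dex against Veh from -0.16 (without Veh 3) to 0.28. The last was also negative without Veh 4, Veh 9, Dex 5, Dex 7 or Dex 9. H2-DMb1 has no value with the stricter filter, which it does not pass.

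The count of all probe sets called in Dex against Veh (18) was 3 with the replicate block, 7 without a filter, 1 when the third group was left out of the fit and 1 with the beta-actin ratio, and 4 to 124 when 1 array was left out (lowest without Dex 5, highest without Dex 6). In Veh against Con (262) it was 85 with quantile normalization, 116 without a filter, 656 when the third group was left out of the fit, 33 with the beta-actin ratio and 86 to 589 when 1 array was left out (lowest without Veh 5, highest without Veh 9). In Dex against Con (1115) it was 658 with quantile normalization and 783 to 1483 when 1 array was left out. With quantile normalization the median over all tested probe sets was -0.02 in Veh against Con and -0.04 in Dex against Con, and 52.9% and 29.3% of the calls were higher, against 30.9% and 19.8% in the values reported. In Dex against Veh 26.7% were higher, against 16.7%.

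The tested list genes were 11 of the class II pathway, 9 of class I presentation and 8 of the interferon-gamma response. Tested markers were 13 of macrophages, 6 of dendritic cells, 5 of B cells, 1 of T and NK cells, 6 of leukocytes, 5 of endothelium and 6 of hepatocytes. Over all these lists 2 genes were called in Dex against Veh (Igtp and Psmb8), beside 0.265% of all tested probe sets. The count was 0 with the replicate block, quantile normalization, no filter, a fit without the third group or the beta-actin ratio. It was 0 to 5 when 1 array was left out. In Veh against Con 1 was called (Eng, 1 to 2 when 1 array was left out), beside 3.86% of all. In Dex against Con 12 were called, beside 16.4% of all. There 3 were called with quantile normalization, 6 without a filter and 6 to 15 when 1 array was left out. The causes were not tested. The labels do not say whether replicate numbers pair the mice. Same-numbered mice correlated between -0.195 and 0.187 in their deviations from the group means. In Dex against Veh, 3 of the 9 Dex mice correlated best with the Veh mouse of their own number. Such correlations cannot decide whether mice were paired. With the replicate block 0 class II genes passed.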

Other observations

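Leukocyte markers, of which 6 of 10 were tested, summed to 354.2 to 655.9 in Dex, 367.2 to 893.5 in Veh and 379.9 to 675.5 in Con, with 893.5 in Veh 7, and limma called 0 of 6 in each comparison (0 at an unadjusted p under 0.05). Of these 6, 3 lay above every Con mouse in Veh 7 and 0 in Veh 2, beside 12.5% and 11.1% of all tested probe sets. Of 5 tested liver endothelium markers 1 rose in Veh against Con, beside 1.19% of all tested probe sets called higher. It was Eng, a receptor of the TGF-beta family (0.66 ± 0.13, limma adjusted p = 0.00619). In Dex against Con 1 of the 5 rose, again Eng (0.38 ± 0.13, limma adjusted p = 0.0399), beside 3.26% of all. There 1 fell, the cadherin Cdh5 (-0.63 ± 0.21, limma adjusted p = 0.042), beside 13.2% of all. Of 6 hepatocyte markers 4 rose in Dex against Con: Cps1 of the urea cycle (0.75 ± 0.18, limma adjusted p = 0.00606), Tat (1.18 ± 0.28, 0.00705), Apoa1 (0.67 ± 0.20, 0.0234) and Alb (0.61 ± 0.19, 0.0276), beside 3.26% of all tested probe sets called higher. With quantile normalization the difference was 0.01 for Alb, 0.19 for Apoa1, 0.41 for Cps1 and 0.78 for Tat, and only Apoa1 of the 4 passed (limma adjusted p = 0.0408). Without a filter Alb and Apoa1 did not pass (0.071 and 0.0562). Of 13 tested macrophage markers 2 fell in Dex against Con, beside 13.2% of all tested probe sets called lower. These were Mrc1 (-0.90 ± 0.25, limma adjusted p = 0.0162) and Cd5l (-0.99 ± 0.28, 0.0172). Among the 13 differences 11 were negative and 2 positive. Of 6 tested dendritic cell markers 1 rose, Fscn1 (0.63 ± 0.20, limma adjusted p = 0.0294), beside 3.26% of all called higher. Of the markers other than those of hepatocytes, Cd5l, Cdh5 and Eng in Dex against Con did not pass with quantile normalization (limma adjusted p = 0.0514, 0.21 and 0.0776), and Cdh5 was then at -0.40. Cdh5 and Eng in Dex against Con also did not pass without a filter or in a fit without Veh, Fscn1 did not pass in a fit without Veh, and Cdh5 did not pass with the replicate block (0.0535).

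Within Dex, H2-Aa and H2-Eb1 ran against each other (r = -0.624, 9 mice). Dex 5 and Dex 7 had 10 and 19.8 for H2-Aa and 102.9 and 125.9 for H2-Eb1. In Veh the same pair had r = 0.251 and in Con 0.249. These are descriptions and were not tested.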
